A study of Mus musculus with 26 samples.

Results

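The nuclear-encoded subunits of the mitochondrial respiratory chain and of ATP synthase were examined in mouse embryonic stem cells (ESCs) and in the neural progenitor cells (NPCs) made from them. The members were every gene whose symbol begins with Nduf (letters a, b, c, s or v and a number), Uqcr, Cox4 to Cox8, Atp5 or Sdh (a to d), pseudogenes left out. This gave 84 of the 55291 gene symbols in the count tables: 36 in complex I, 4 in complex II, 8 in complex III, 19 in complex IV and 17 in complex V.

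The respiratory chain sits in the inner mitochondrial membrane. Complex I (NADH dehydrogenase) and complex II (succinate dehydrogenase, which is also an enzyme of the citric acid cycle) pass electrons to ubiquinone, complex III passes them to cytochrome c, and complex IV (cytochrome c oxidase) hands them to oxygen. Complexes I, III and IV pump protons, and complex V (ATP synthase) uses the proton gradient to make ATP. Most subunits are encoded in the nucleus and imported, a small core of every complex but complex II is encoded by the mitochondrial genome, and several complex IV subunits exist as tissue isoforms, for example in muscle, lung or testis. Pluripotent cells are known for active glycolysis, and the balance between glycolysis and respiration is known to shift as they differentiate.

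The series holds 26 RNA-seq libraries in 10 groups and 2 separate count tables, all from the E14 line of mouse ESCs. In the rescue table (8 libraries, 2 per group), both alleles of Ctcf, the gene of a DNA-binding chromatin protein, carry an N-terminal mAID-eGFP degron, 1 Rosa26 allele carries the F-box protein OsTIR1(F74G), both Hb9 (Mnx1) alleles carry a 2A-linked mCherry, and a doxycycline-inducible Flag-Halo-CTCF sits at both Tigre alleles. That transgene is either wild-type (ESC-WT and NPC-WT) or lacks zinc finger 1 (ESC-ΔZF1 and NPC-ΔZF1). All 4 rescue groups received 5-Ph-IAA (1 µM), which degrades the tagged endogenous CTCF, together with doxycycline (1 µg/ml) for 24 h. Each CTCF form is 1 clone, so form and clone cannot be told apart. In the truncation table (18 libraries, 3 per group), parental E14 cells were compared with lines in which an eGFP cassette, linked by a 2A peptide and ending in the SV40 polyadenylation signal was placed in frame after the first coding exon of both alleles of Podxl (Podxl pA) or of Grb10 (Grb10 pA), each as ESCs and NPCs. NPCs were cells after 2 days in N2B27 medium on laminin. ESCs were kept in N2B27 medium with leukemia inhibitory factor and added inhibitors on gelatin, so cell type and medium changed together.

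Total counts per library ran from 6425179 to 28730435 in the rescue table and from 1907505 to 8845087 in the truncation table. The chi-square per degree of freedom over genes between replicates was highest for the 2 NPC-WT libraries (64.1). Next came pairs holding ESC-E14 replicate 1 (13.5 and 27.8) or ESC-Grb10 pA replicate 2 (17.7 and 22.5), against 1.69 to 6.37 for the other pairs. This value grows with depth, so it does not rank pairs of unlike depth, such as those of the 2 tables, by their spread. Podxl was at 20.8 to 24.3 counts per 1e6 library counts (CPM) in NPC-Podxl pA against 232 to 259 in NPC-E14, and Grb10 at 52.2 to 59.4 CPM in NPC-Grb10 pA against 769 to 814, as the labels state. Counts of Ctcf cannot separate the endogenous gene from the transgene. The 8 ESC markers summed to 3887 to 5997 CPM in ESCs and 573 to 881 CPM in NPCs. The 8 NPC markers summed to 21 to 51 CPM in ESCs. Their sum was 93 to 167 CPM in the NPC groups other than NPC-Grb10 pA and 43 to 55 CPM in NPC-Grb10 pA. Hes5 had no count in NPC-Grb10 pA and NPC-WT, and Olig2 had none in NPC-Grb10 pA and NPC-Podxl pA.

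In NPCs, the subunit transcripts took a smaller part of the RNA than in ESCs in every line. The 84 genes summed to 9649 ± 21.2 CPM (SD, n = 2) in ESC-WT and 7076 ± 591 CPM (n = 2) in NPC-WT, which is 26.7% lower. The sum was 21.7% lower with ΔZF1, 17.9% lower in E14, 20.2% lower in Podxl pA and 15.9% lower in Grb10 pA. In each line, every NPC library lay below every ESC library, both for the whole sum and for each of the 5 complexes. The sums come from whole cultures, in which fewer cells of a type and less RNA per cell cannot be told apart. A lower share of counts also does not say whether the amount per cell fell.

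**Figure D1:**
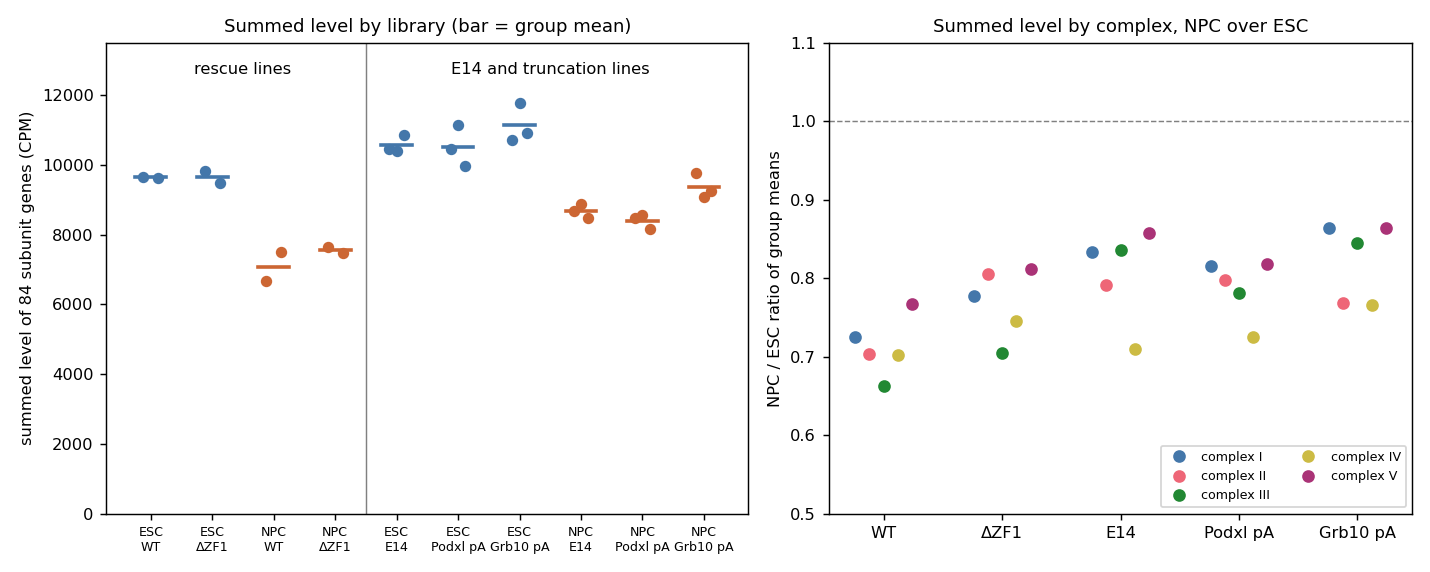
Left, summed level of the 84 subunit genes in each library (CPM, axis from 0; points are libraries, bars are group means, the vertical line separates the 2 count tables). Right, ratio of the NPC to the ESC group mean for each complex and line (axis not from 0); all ratios lie below 1, and complex III in WT is the lowest with its sum 33.7% lower in NPCs.

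Of the 84 genes, 79 had enough counts to be tested in each table. The other 5 were the isoform genes Cox6a2, Cox6c2, Cox7b2, Cox8b and Cox8c, with 0 to 11 counts per library. Called below means an adjusted p of at most 0.05 (edgeR quasi-likelihood test, Benjamini-Hochberg over all genes of a table) together with a change of at least 0.5 in size on the log2 scale, and significant means the adjusted p alone. No subunit gene was called higher in NPCs in any of the 5 lines. In NPC-WT vs ESC-WT 41 of 79 were called lower, where 19.9% of all 16641 genes tested were called lower and 41.9% were called in either direction. With ΔZF1 the count was 23 (background lower 16.9%, either direction 37.3%), in E14 22 (16.3% and 32.8% of 13268 genes), in Podxl pA 15 (14.7% and 31.8%) and in Grb10 pA 14 (17.4% and 34.6%). In Podxl pA and Grb10 pA the share of the 79 genes that was called lower was thus near the background. The 79 genes had a median log2 fold change of -0.57, -0.36, -0.31, -0.35 and -0.24 in the same order, while over all genes the median was 0.01, 0.02, -0.01, -0.02 and -0.02. At the adjusted p alone, 53, 37, 43, 42 and 32 genes were lower, against backgrounds of 23.7%, 20.6%, 23.7%, 23% and 25.6%, and only Uqcrq in Grb10 pA was higher (background higher 24%). The study calls the replicates biological, but the labels do not say whether they came from separate cultures, so the p-values measure the spread between these libraries, which may be technical. The count of 23 with ΔZF1 was 15 without ESC-ΔZF1 replicate 1 and 10 or 11 without 1 or the other NPC-ΔZF1 library, and the count of 14 in Grb10 pA was 9 without ESC-Grb10 pA replicate 2.

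**Figure D2:**
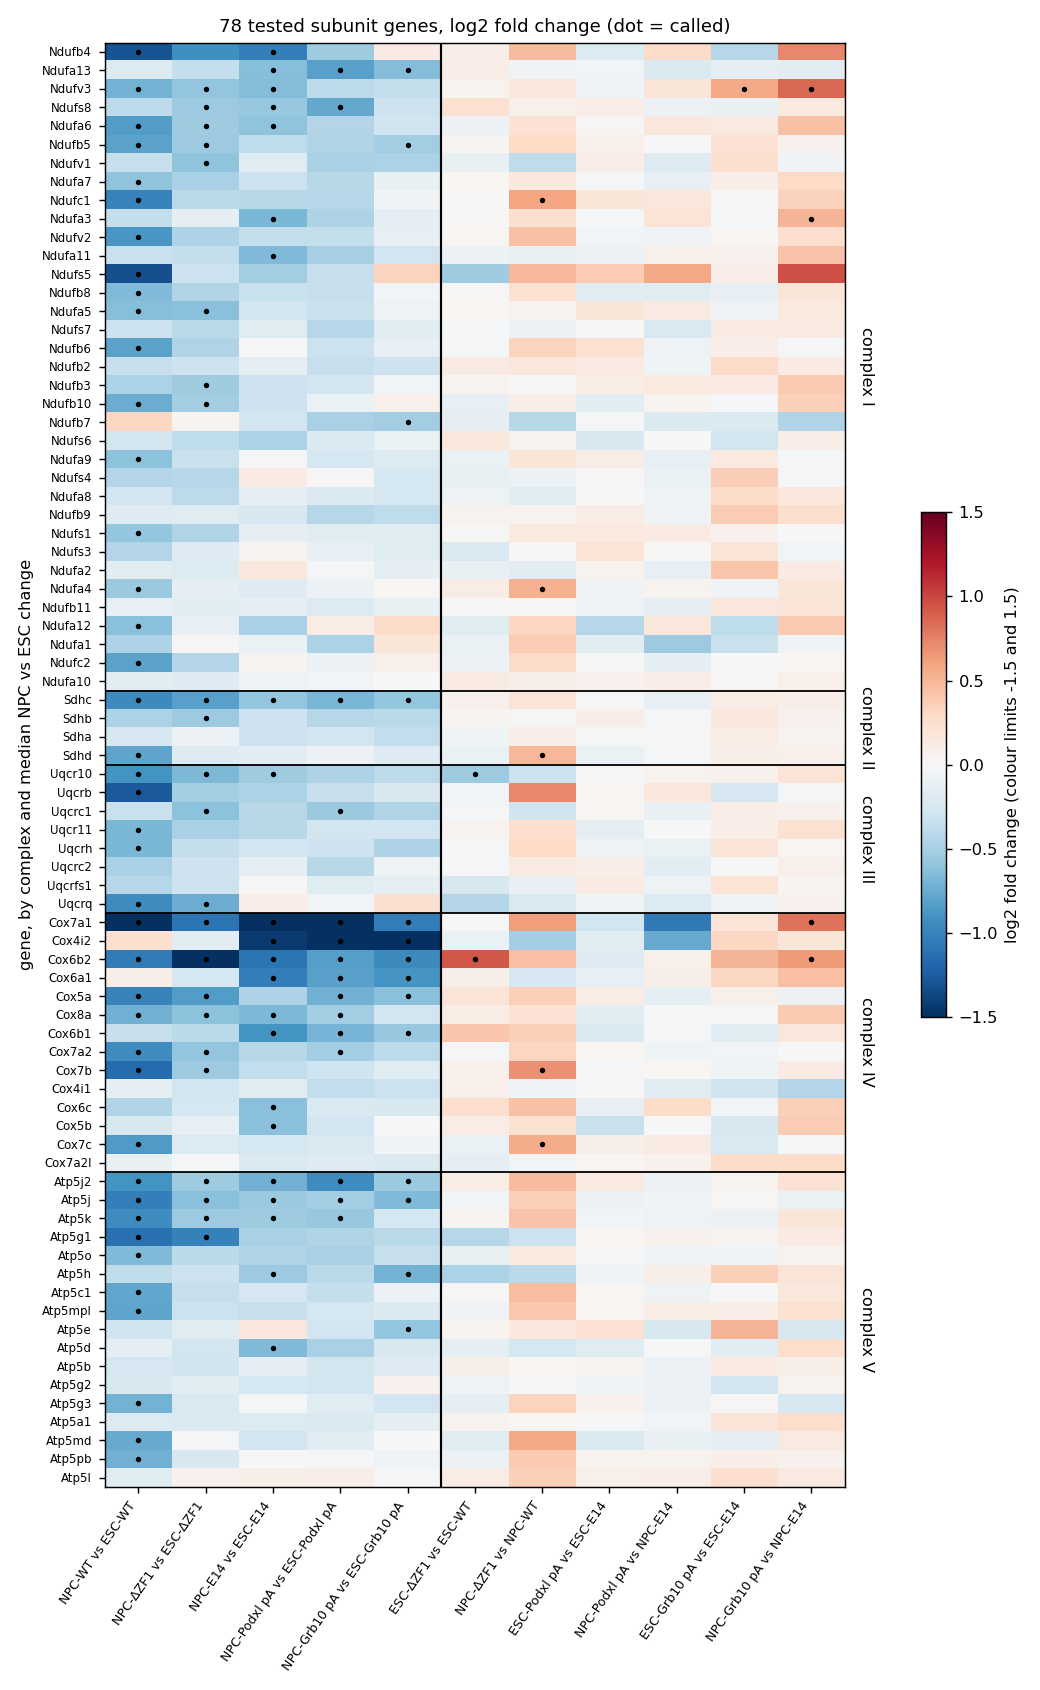
Log2 fold change of 78 of the tested subunit genes (rows, by complex) in 11 comparisons (columns), with colours limited to ±1.5 and a dot where a gene was called. The 5 NPC vs ESC columns are mostly on the lower side, with 41, 23, 22, 15 and 14 dots, and the mutant against control columns hold 0 to 5.

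Markers of other cell types moved between ESCs and NPCs as well. All 6 extraembryonic endoderm markers (Gata4, Gata6, Sox17, Sox7, Dab2 and Foxa2) were called higher in NPCs of all 5 lines. Their sum was 9 to 39 CPM in ESC libraries and 101 to 117 CPM in NPC-WT, 762 to 811 in NPC-ΔZF1, 260 to 301 in NPC-E14, 518 to 526 in NPC-Podxl pA and 207 to 279 in NPC-Grb10 pA. The 5 surface ectoderm markers (such as Krt8 and Krt18) summed to 2828 to 4151 CPM in NPC-WT and 1159 to 1216 CPM in NPC-ΔZF1, against 297 to 372 CPM in the NPCs of the truncation table and 116 to 211 CPM in ESCs. The 5 fibroblast markers summed to 55 to 100 CPM in NPC-WT, 25 to 29 CPM in NPC-ΔZF1 and at most 7 CPM in all other groups. The 5 mesoderm markers stayed between 8 and 76 CPM in all groups. The part of these cells in the lower subunit levels was not tested.

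The 5 lines share no library between their NPC vs ESC comparisons, so agreement across them could be counted. The estimate was below 0 in all 5 for 59 of the 79 genes (74.7%), against 22.1% of the 13226 genes tested in both tables. A significant fall in all 5 was found for 17 of 79 (21.5%), against 7.14% of all genes. A call in all 5 was found for 5 of 79 (6.33%), near the 5.38% of all genes. These 5 genes were Sdhc of complex II, Cox6b2 and Cox7a1 of complex IV, and Atp5j and Atp5j2 of complex V. The other 12 with a significant fall in all 5 were Ndufa6, Ndufb5, Ndufs8 and Ndufv3 of complex I, Sdhb of complex II, Uqcr10 of complex III, Cox5a, Cox6b1, Cox7a2 and Cox8a of complex IV, and Atp5g1 and Atp5o of complex V, listed after their values were seen. At least 1 significant fall was found for 71 of the 79, and 8 genes had none. The matching share of all genes was not counted, while 20.6% to 25.6% of all genes fell significantly in each single line.

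Nuclear transcription factors that are known to bind the promoters of respiratory genes include NRF1, the ETS-family factor GABP and YY1. Promoter sequence from RefSeq (build GRCm38.p6, 250 bases before to 50 after the start of transcription) was at hand for 68 of the 84 genes. Exact matches were searched on both strands. The palindrome bound by NRF1 (its letters are the capitals in Cox6a1 below) occurred in 5 of 68 promoters (7.35%), against 1.07% of all 27025 promoters and 2.32% of those of tested genes. The YY1 letters AAGATGGCG occurred in 7 (10.3%, against 1.64% and 3.57%), and 6 of these 7 lay after the start site, where the letters hold an ATG. The ETS letters CCGGAAGT occurred in 5 (7.35%, against 4.31% and 9.04%), below the share of tested genes. Any of the 3 was in 17 of 68 promoters (25%, against 6.76% and 14.3%). A match is a description of letters and no evidence of binding. The 30 bases around a match are shown for 3 genes that fell in all 5 lines (Atp5j at chr16:84835045-84835074, Atp5j2 at chr5:145191499-145191528, Cox8a at chr19:7217604-7217633) and for 2 whose fall differed between the tables (Ndufc1 at chr3:51408914-51408943, Cox6a1 at chr5:115349101-115349130). All 5 genes are on the minus strand, the sequences run 5′ to 3′ on that strand, and capitals mark the YY1 letters in Atp5j, Atp5j2 and Ndufc1, the ETS letters (reverse strand) in Cox8a and the NRF1 letters in Cox6a1.
Atp5j: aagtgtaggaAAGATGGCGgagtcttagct
Atp5j2: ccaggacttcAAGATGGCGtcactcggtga
Cox8a: atttccgaaatACTTCCGGctcgggcgtcc
Ndufc1: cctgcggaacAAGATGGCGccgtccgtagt
Cox6a1: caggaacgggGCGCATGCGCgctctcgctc

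Complex I takes electrons from NADH through core subunits that include Ndufv1 and Ndufs1. Of its 36 genes, 17 were called lower in WT, 8 with ΔZF1, 7 in E14, 2 in Podxl pA and 3 in Grb10 pA. The medians were -0.47, -0.40, -0.28, -0.35 and -0.14. These counts are 47.2%, 22.2%, 19.4%, 5.56% and 8.33% of the 36, against 19.9%, 16.9%, 16.3%, 14.7% and 17.4% of all genes. The shares in Podxl pA and Grb10 pA thus lay below those of all genes, and the share in E14 was near it. Ndufs1, which holds iron-sulphur clusters of the electron path, was at 179 and 172 CPM in ESC-WT and 122 and 114 CPM in NPC-WT. It fell by 0.57 ± 0.10 on the log2 scale (SE, adjusted p 0.0009). In E14 Ndufs1 was at 121, 151 and 147 CPM in ESCs and 129, 128 and 125 CPM in NPCs, so that the groups overlapped (-0.13 ± 0.09, adjusted p 0.24). Ndufv1, the NADH-binding subunit, had log2 fold changes of -0.34 in WT and -0.18 in E14, neither significant, but fell by 0.61 ± 0.17 with ΔZF1 (adjusted p 0.014).

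Of the complex I genes that passed in both WT and E14, the accessory subunits Ndufb4 and Ndufa3 had the largest falls in E14. In WT, Ndufb4 (-1.29) was also the lowest of them, but Ndufa3 had only -0.36 ± 0.13, a smaller fall than Ndufa6 (-0.84), Ndufb5 (-0.80) or Ndufv3 (-0.71). Ndufb4 was at 17.4, 14.4 and 14.8 CPM in ESC-E14 and 7.12, 6.26 and 10.4 CPM in NPC-E14 (-1.03 ± 0.32, adjusted p 0.0099). In NPC-WT its replicates stood far apart, at 11.4 and 3.52 CPM. Ndufa3 was at 45.4, 37.8 and 36.1 CPM in ESC-E14 and 23.6, 26.6 and 23.6 CPM in NPC-E14 (-0.68 ± 0.13, adjusted p 7.7e-05), with no overlap. It overlaps Tfpt on the opposite strand, and strand was not used in counting. Ndufb5 and Ndufs8 fell in all 5 lines. Ndufb5, another accessory subunit, fell by 0.38 to 0.80, and Ndufs8, which carries iron-sulphur clusters, by 0.31 to 0.76. At the lower end, Ndufs5 was at only 0.602 to 3.61 CPM in the 26 libraries, and 21.7% of its 50-base stretches also occur in another gene.

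Complex II has no mitochondrially encoded subunit. Its membrane anchor Sdhc (chr1:171127165-171150603, minus strand) was at 119 and 109 CPM in ESC-WT and 57.2 and 60.6 CPM in NPC-WT. In E14 it was at 134, 129 and 129 CPM in ESCs and 91.3, 91.1 and 79.5 CPM in NPCs. All NPC libraries lay below all ESC libraries in both. The log2 fold changes were -0.96 ± 0.12 in WT, -0.81 ± 0.12 with ΔZF1, -0.58 ± 0.09 in E14, -0.68 ± 0.09 in Podxl pA and -0.58 ± 0.08 in Grb10 pA, with adjusted p from 2.7e-07 to 0.00033. Sdhb, the iron-sulphur subunit, fell by 0.31 to 0.54 in the 5 lines. The flavoprotein Sdha, which oxidises succinate, was at 254 and 243 CPM in ESC-WT and 203 and 213 CPM in NPC-WT, and its value of -0.25 ± 0.10 missed the threshold (adjusted p 0.051). It fell by 0.27 to 0.37 in the 3 lines of the truncation table. The second anchor, Sdhd, fell by 0.79 ± 0.12 in WT but had values of -0.19, -0.17, -0.09 and -0.19 in the other lines, none significant.

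Complex III had the largest drop of its summed level among the complexes in WT (33.7% lower) and with ΔZF1 (29.6% lower). Of its 8 genes, 5 were called lower in WT, 3 with ΔZF1, 1 in E14, 1 in Podxl pA and 0 in Grb10 pA. That is 62.5%, 37.5%, 12.5%, 12.5% and 0%, against 19.9%, 16.9%, 16.3%, 14.7% and 17.4% of all genes called lower. Uqcr10, a small subunit next to cytochrome c1, was at 129 and 120 CPM in ESC-WT and 60.9 and 73.0 CPM in NPC-WT. In E14 it was at 113, 112 and 118 CPM in ESCs and 85.1, 82.8 and 68.1 CPM in NPCs. Its falls were 0.90, 0.68, 0.53, 0.47 and 0.39 on the log2 scale, all significant. Uqcrb, a ubiquinone-binding subunit, fell by 1.26 ± 0.25 in WT and 0.48 ± 0.15 in E14, and its NPC-WT replicates differed (38.1 and 18.8 CPM). A part of Uqcrb (25.5% of its 50-base stretches) is shared with other genes. Uqcrc1, a core protein, fell significantly in 4 lines (by 0.42 to 0.62) and had -0.33 ± 0.15 in WT (adjusted p 0.094). Uqcrc2, the other core protein, fell significantly in WT (by 0.49) and Podxl pA (by 0.41). The Rieske iron-sulphur protein Uqcrfs1 fell by 0.43 ± 0.11 in WT and had 0.02 ± 0.13 in E14.

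Uqcrq, a small complex III subunit on chr11:53427922-53430831 (minus strand), differed between the tables. It was at 149 and 151 CPM in ESC-WT and 74.8 and 81.3 CPM in NPC-WT, with no overlap (-0.95 ± 0.11, adjusted p 7.2e-05). In E14 it was at 136, 132 and 129 CPM in ESCs and 149, 144 and 133 CPM in NPCs, which overlapped (0.10 ± 0.08, adjusted p 0.33). In Grb10 pA it rose by 0.24 ± 0.08 (adjusted p 0.016), the only significant rise among the 79 genes in the 5 comparisons.

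Complex IV had 7, 6, 8, 8 and 6 of its 14 tested genes called lower (WT, ΔZF1, E14, Podxl pA and Grb10 pA). That is 50%, 42.9%, 57.1%, 57.1% and 42.9%, against 19.9%, 16.9%, 16.3%, 14.7% and 17.4% of all genes called lower. Its sum was 29.7%, 25.4%, 29.0%, 27.5% and 23.4% lower in NPCs. Cox5a, which sits on the matrix side of the enzyme, was at 168 and 158 CPM in ESC-WT and 84.9 and 77.1 CPM in NPC-WT, without overlap. It fell by 1.01 ± 0.10 in WT, 0.84 ± 0.10 with ΔZF1, 0.46 ± 0.09 in E14, 0.72 ± 0.09 in Podxl pA and 0.63 ± 0.09 in Grb10 pA. Cox4i1, the general form of the subunit known to bind ATP, was at 316 and 315 CPM in ESC-WT and 245 and 331 CPM in NPC-WT, so that the groups overlapped (-0.13 ± 0.13, adjusted p 0.44). It fell significantly only in Podxl pA (by 0.37) and Grb10 pA (by 0.32).

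Several complex IV subunits have a general and a tissue form, and the minor forms were among the genes with the largest falls. Cox7a1 (chr7:30184144-30186078, plus strand), the form of heart and skeletal muscle, was at 18.1, 20.9 and 20.6 CPM in ESC-E14 and 3.88, 6.88 and 7.75 CPM in NPC-E14. In the rescue table it was at 5.35 and 6.78 CPM in ESC-WT and 1.69 and 2.23 CPM in NPC-WT. The groups did not overlap in any line. The falls were 1.69 ± 0.28, 1.09 ± 0.24, 1.65 ± 0.22, 2.43 ± 0.25 and 1.04 ± 0.19 on the log2 scale. Per length, Cox7a1 made up 21.0 ± 0.865% (SD, n = 3) of the level of Cox7a1, Cox7a2 and Cox7a2l together in ESC-E14 and 9.77 ± 3.55% in NPC-E14, and 8.89 ± 1.66% (n = 2) in ESC-WT and 4.71 ± 1.18% in NPC-WT. The liver form Cox7a2 was the main one of the set, at 60.2 ± 1.34% in ESC-E14 and 66.3 ± 6.86% in NPC-E14, and also fell, by 0.39 to 0.94 in the 5 lines. Cox7a2l, known as a factor that joins complexes III and IV, had values of -0.22 to -0.01 and did not pass in any line.

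Cox6b2 (chr7:4751792-4753094, minus strand), the testis form, was at 20.7, 15.1 and 13.2 CPM in ESC-E14 and 6.47, 7.79 and 9.10 CPM in NPC-E14. It fell by 1.05 ± 0.24, 1.52 ± 0.21, 1.09 ± 0.21, 0.82 ± 0.21 and 0.96 ± 0.18 in the 5 lines. The general form Cox6b1 was at 233, 189 and 189 CPM in ESC-E14 and 115, 110 and 104 CPM in NPC-E14 and fell by 0.89 ± 0.11. As both forms fell in E14, the share of Cox6b2 per length was 4.84 ± 0.548% (n = 3) in ESC-E14 and 4.37 ± 0.916% in NPC-E14. In WT, where Cox6b1 fell by 0.35 ± 0.10, the share of Cox6b2 was 3.93 ± 0.0412% (n = 2) and 2.55 ± 0.871%. Removing a trend with gene length turned the WT value of Cox6b1 to 0.11.

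Cox4i2 (chr2:152754173-152765037, plus strand), the form known from lung, was low everywhere, at 0.167 to 3.80 CPM in the 26 libraries. It was at 3.05, 2.05 and 1.16 CPM in ESC-E14 and 0.971, 0.611 and 1.01 CPM in NPC-E14, a fall of 1.44 ± 0.52 (adjusted p 0.024), and fell by 2.02 ± 0.57 in Podxl pA and 1.57 ± 0.45 in Grb10 pA. In WT it was at 1.22 and 0.848 CPM in ESCs and 1.48 and 0.688 CPM in NPCs, with full overlap (0.24 ± 0.51). Cox6a1, the liver form of its subunit, was at 165, 127 and 131 CPM in ESC-E14 and 59.2, 76.7 and 69.1 CPM in NPC-E14 (-1.03 ± 0.18). In WT it was at 66.2 and 76.8 CPM in ESCs and 60.0 and 93.0 CPM in NPCs, which overlapped (0.09 ± 0.18, adjusted p 0.72). With ΔZF1 it was at 77.0 and 75.8 CPM in ESCs and 63.4 and 63.9 CPM in NPCs, without overlap but not past the test (-0.26 ± 0.18, adjusted p 0.26). Cox8a, the general form of its subunit, fell in all 5 lines by 0.28 to 0.72. Cox7b fell by 1.16 ± 0.18 in WT and by 0.36 ± 0.10 in E14. The heart and muscle forms Cox6a2 and Cox8b and the testis forms Cox6c2, Cox7b2 and Cox8c were not tested. Cox8b, for example, had 0 counts in all 3 ESC-E14 libraries, where a count of 0 allows up to 0.513 to 1.19 CPM (3 counts, counting error only).

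**Figure D3:**
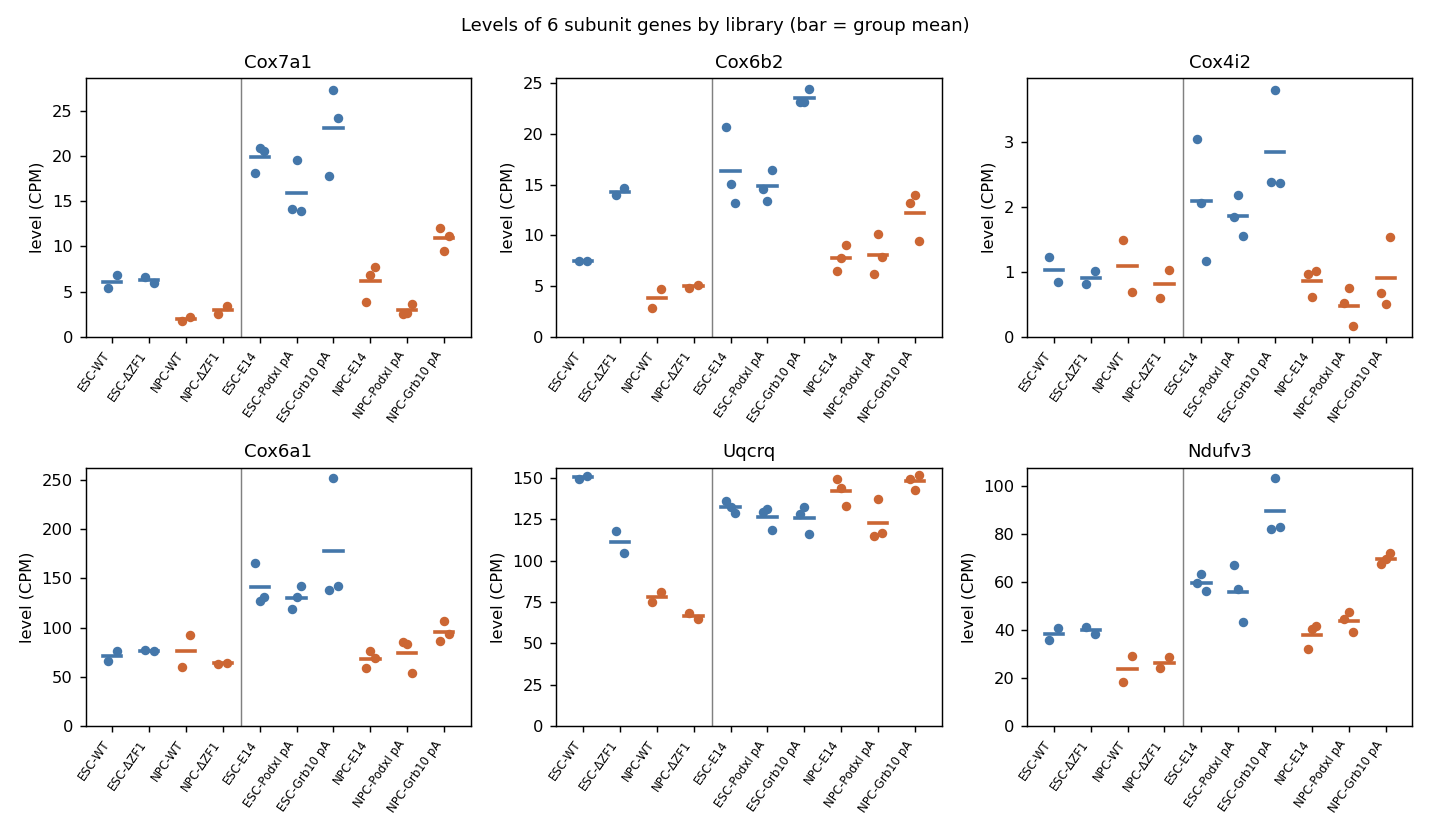
Level (CPM, axes from 0) of Cox7a1, Cox6b2, Cox4i2, Cox6a1, Uqcrq and Ndufv3 in each library (points; bars are group means, the vertical line separates the 2 count tables). Cox7a1 falls in NPCs of all 5 lines, Cox6a1 passes the test only in the 3 lines of the truncation table and Uqcrq falls significantly only in the 2 of the rescue table, and Ndufv3 is high in both Grb10 pA groups.

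Complex V holds a catalytic head (alpha, Atp5a1; beta, Atp5b), a stalk and a membrane ring of c subunits. Of its 17 genes, 10, 4, 5, 3 and 4 were called lower. That is 58.8%, 23.5%, 29.4%, 17.6% and 23.5%, against 19.9%, 16.9%, 16.3%, 14.7% and 17.4% of all genes called lower. Atp5j (chr16:84827866-84835625, minus strand), coupling factor 6 of the peripheral stalk, was at 90.9 and 88.2 CPM in ESC-WT and 51.6 and 35.5 CPM in NPC-WT. It fell by 1.03 ± 0.16, 0.62 ± 0.15, 0.55 ± 0.11, 0.52 ± 0.11 and 0.66 ± 0.10. It overlaps Gabpa on the opposite strand, and strand was not used in counting. Atp5j2 (chr5:145183698-145192062, minus strand), the f subunit of the membrane part, was at 85.7, 99.3 and 88.1 CPM in ESC-E14 and 36.6, 66.5 and 59.7 CPM in NPC-E14, with no overlap (-0.72 ± 0.18), and fell by 0.54 to 0.94 in the 5 lines. The head subunits had smaller values. Atp5b was at 1693 and 1675 CPM in ESC-WT and 1250 and 1581 CPM in NPC-WT (-0.25 ± 0.12, adjusted p 0.11), and fell significantly only in Podxl pA (by 0.28) and Grb10 pA (by 0.19). Atp5a1 fell significantly only in E14 (by 0.20) and Podxl pA (by 0.22), and its WT value was -0.21 ± 0.12.

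The c subunit is made as the same mature protein from Atp5g1, Atp5g2 and Atp5g3. Atp5g1 was at 171 and 171 CPM in ESC-WT and 68.4 and 90.1 CPM in NPC-WT and fell in all 5 lines, by 1.12 ± 0.13 in WT and 0.49 ± 0.09 in E14. Per length, Atp5g1 made up 24.3 ± 0.167% (n = 2) of the set in ESC-WT and 18.8 ± 3.52% in NPC-WT, and 19.1 ± 1.81% (n = 3) in ESC-E14 and 15.1 ± 1.65% in NPC-E14. These shares depend on the exon lengths used. Without length, the means of Atp5g1 and Atp5g3 in ESC-WT were closer, at 171 and 207 CPM. Atp5g3 was the largest part of the set, at 65.5 ± 3.68% in ESC-E14 and 70.9 ± 2.37% in NPC-E14. It fell by 0.71 ± 0.10 in WT and had values of -0.23, -0.03, -0.18 and -0.28 in the other lines, none significant. Atp5g2 passed in no line, and 38.3% of its 50-base stretches are shared with other genes.

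In ESC-E14, levels per length (CPM per kb of exon) placed Atp5b highest of all members, at 431, followed by Atp5a1 at 358. The length counts all annotated exons of a gene, so these ranks depend on the annotation. Cox8a was the highest of complex IV, at 299. Uqcr10 (196), Ndufa4 (105) and Sdhd (105) were the highest of complexes III, I and II. Ndufa4 is counted with complex I here by its symbol, although it is now known as a complex IV subunit. The lowest were Ndufs5 (1.77) in complex I, Sdhc (40.3) in complex II, Uqcrb (60.3) in complex III and Atp5l (0.81) in complex V, while Cox8b had no count in complex IV. The medians were 35.1, 57.8, 73.7, 37.1 and 42.6 CPM per kb for complexes I to V. In NPC-E14, Cox4i1 (217) took the place of Cox8a as the highest of complex IV. Atp5l overlaps an antisense gene (Gm30934), and in all 37 of the 84 members overlap another gene.

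Many subunit genes are short, and in the rescue table short genes as a whole were lower in NPCs. Among genes with at most 1 kb of exon, the median for all genes was -0.46 in WT, -0.28 with ΔZF1, -0.11 in E14, -0.18 in Podxl pA and -0.05 in Grb10 pA. The 19 subunit genes of that length had medians of -0.69, -0.44, -0.47, -0.35 and -0.26. For genes over 4 kb the medians of all genes were 0.12, 0.10, 0.00, 0.02 and -0.02, and those of the 10 subunit genes of that length -0.34, -0.31, -0.22, -0.31 and -0.34. With a trend on exon length taken out of each library, 28 genes were called in WT, of which 1 was higher. The count was 14 with ΔZF1, 18 in E14, 11 in Podxl pA and 14 in Grb10 pA. The shares of all genes called after this step are not given, so these counts have no background beside them.

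**Figure D4:**
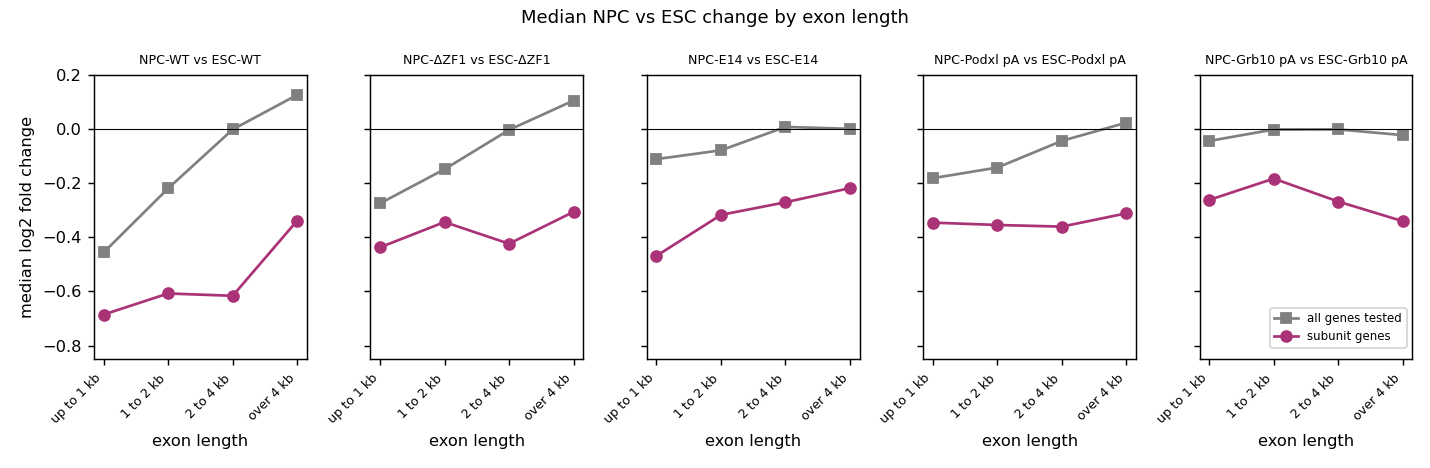
Median log2 fold change of NPC vs ESC by exon length class, for all genes tested (grey squares) and for subunit genes (purple circles; 19, 31, 19 and 10 genes per class), in the 5 lines. The grey line slopes upward in WT and ΔZF1, from -0.46 and -0.28 to 0.12 and 0.10, and the purple line lies below it in every class.

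Other genes of the pathway were described by lists, with examples picked after their values were seen. Of all genes, 19.9%, 16.9%, 16.3%, 14.7% and 17.4% were called lower in the 5 lines. In either direction 41.9%, 37.3%, 32.8%, 31.8% and 34.6% were called. Of 8 electron carriers and subunits outside the symbol rule, 5, 2, 1, 2 and 3 were called lower and none higher. Their medians were -0.59, -0.33, -0.14, -0.23 and -0.31. Among them, Cyc1, the cytochrome c1 of complex III, fell significantly in WT (by 0.49 ± 0.14), ΔZF1 (0.48 ± 0.14) and Podxl pA (0.33 ± 0.11). Cytochrome c itself (Cycs) fell in WT by 0.63 ± 0.11 and had 0.21 ± 0.13 in E14 (adjusted p 0.18). Ndufa4l2, a hypoxia-induced relative of Ndufa4, was called lower in 4 lines, by 2.46 ± 0.27 in E14, and had -0.20 ± 0.50 with ΔZF1. Of 43 assembly factors tested in the rescue table, 19 were called lower and 1 higher in WT and 10 and 0 with ΔZF1. Of 42 tested in the 3 truncation lines, 3, 3 and 6 were lower and 2, 1 and 1 higher, with medians of -0.03, -0.14 and -0.03. These shares of lower calls lay below those of all genes (16.3%, 14.7% and 17.4%). One of those that rose was Tmem70, a factor of ATP synthase assembly (0.77 ± 0.15 in E14).

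Among 12 regulators of mitochondrial biogenesis, 3, 1, 2, 3 and 1 were called lower and 0, 1, 2, 0 and 1 higher. The shares of all genes called lower were 19.9%, 16.9%, 16.3%, 14.7% and 17.4%, as above. Gabpa, the DNA-binding part of GABP, was called lower in all 5 lines, by 0.96, 0.72, 0.50, 0.51 and 0.61, but shares ground with Atp5j (above). Nrf1 passed in no line (values from -0.01 to 0.16). Tfam, which packages and transcribes mitochondrial DNA, fell by 0.44 ± 0.10 in WT and rose by 0.51 ± 0.11 in E14. Of 13 citric acid cycle genes, 5, 1, 2, 0 and 1 were called lower and 0, 0, 0, 0 and 1 higher. Only the WT count of lower calls exceeded the share of all genes. Citrate synthase (Cs) fell significantly in all 5 lines, by 0.26 to 0.62.

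The mitochondrially encoded subunits varied between lines, and the share of all mitochondrial genes in the counts also varied within groups. It was 2.01% and 0.580% in NPC-WT, 0.226% to 0.801% in NPC-E14 and 0.106% to 0.260% in ESC-Grb10 pA. In NPC-ΔZF1 the libraries were closer, at 1.78% and 1.97%, and NPC-Podxl pA had 0.815% to 1.48%. Of the 13, 7 passed the count filter. Their median was -0.25 in WT, 0.32 with ΔZF1 and -0.45 in E14, with 0, 0 and 2 called lower and none higher. In Podxl pA and Grb10 pA all 7 were called higher in NPCs, with medians of 1.72 and 1.02. Of all genes, 41.9%, 37.3%, 32.8%, 31.8% and 34.6% were called in either direction in the 5 lines. Between lines, all 7 were called higher in NPC-Podxl pA than in NPC-E14 (median 1.83), where 0.55% of all genes were called. In ESC-Grb10 pA vs ESC-E14, 5 were called lower (median -1.08), where 9.09% of all genes were called.

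The rescue design asks what loss of zinc finger 1 of CTCF changes. In ESCs, 2 of the 79 genes were called, where 3.61% of all genes were. Cox6b2 was at 7.49 and 7.5 CPM in ESC-WT and 14 and 14.7 CPM in ESC-ΔZF1 (0.93 ± 0.22, adjusted p 0.046). Uqcr10 was at 129 and 120 CPM in ESC-WT and 85.4 and 86.0 CPM in ESC-ΔZF1 (-0.54 ± 0.12, adjusted p 0.034). Cox6b1 passed at the adjusted p alone (0.41 ± 0.10, 0.049). The groups did not overlap for these 3 genes, but no call was left without any 1 of the 4 libraries. Uqcr10 lies on chromosome 11, where the median of all 1322 tested genes was -0.46 in ESC-ΔZF1 vs ESC-WT and -0.57 in NPC-ΔZF1 vs NPC-WT. The other chromosome 11 members were at -0.44 (Uqcrq), -0.43 (Atp5g1) and -0.48 (Atp5h) in ESCs. With the median of its chromosome taken out, Uqcr10 was no longer called.

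In NPCs, 5 genes were called higher and none lower with ΔZF1, where 7.19% of all genes were called higher and 17.6% in either direction. Markers of other cell types moved in the same comparison. All 6 extraembryonic endoderm markers were called higher with ΔZF1 (median 2.81), 3 of 5 surface ectoderm markers lower and 1 higher, 2 of 3 tested fibroblast markers lower, 1 of 4 tested mesoderm markers higher, 1 of 8 ESC markers lower, and 2 of 6 tested NPC markers higher and 1 lower. Their part in the subunit values was not tested. Cox7b was at 120 and 76.1 CPM in NPC-WT and 158 and 159 CPM in NPC-ΔZF1 (0.69 ± 0.17, adjusted p 0.021). The others were Ndufc1, an accessory subunit of complex I (0.60 ± 0.15), Cox7c of complex IV (0.55 ± 0.14), Ndufa4 (0.53 ± 0.16) and Sdhd (0.50 ± 0.12). For each of these, both NPC-ΔZF1 libraries lay above both NPC-WT libraries. At the adjusted p alone, 11 genes were higher (background 8.97%) and 1, Atp5h on chromosome 11, was lower (-0.41 ± 0.13). The share of all genes called in fits without 1 library is not given here, so counts from such fits show only how the calls moved. The count of 5 rests on single libraries. It was 0 without either NPC-ΔZF1 library, 27 (19 higher and 8 lower) without NPC-WT replicate 1 and 4 without NPC-WT replicate 2. No gene passed for a difference of the ΔZF1 effect between NPCs and ESCs (edgeR), where 2.7% of all genes did. At an unadjusted p under 0.05 there were 10, for which the share of all genes was not counted, and DESeq2 called 0. With each library left out in turn, the median of this difference over the subunit genes ran from 0.08 to 0.19.

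The truncation design asks what stopping transcription early in Podxl or Grb10 changes. Both truncation lines were edited and grown from single cells, so truncation and clone cannot be told apart in them. With Podxl pA, no subunit gene was called by edgeR or DESeq2 in ESCs, in NPCs or for the difference between them, where 0.339%, 0.55% and 0.098% of all genes were called. At an unadjusted p under 0.05 there were 3, 3 and 4 genes.

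With Grb10 pA, Ndufv3 (chr17:31520115-31531331, plus strand), an accessory subunit of the NADH-oxidising part of complex I, was called higher in ESCs and in NPCs. It was at 59.5, 63.5 and 56.3 CPM in ESC-E14 and 82.2, 104 and 83.2 CPM in ESC-Grb10 pA (0.56 ± 0.12, adjusted p 0.0018). In NPCs it was at 32.0, 40.6 and 41.8 CPM in E14 and 67.5, 69.5 and 72.3 CPM in Grb10 pA (0.86 ± 0.13, adjusted p 1.3e-05). The groups did not overlap in either cell type. It was the 1 gene called in ESCs, where 9.09% of all genes were called. Without ESC-Grb10 pA replicate 1 the count was 4, without replicate 3 it was 3, without ESC-E14 replicate 1 it was 2, and without ESC-Grb10 pA replicate 2 there were 2 calls, both lower.

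In NPCs 3 more genes were called higher with Grb10 pA, 4 in all, where 7.9% of all genes were called higher and 16.5% in either direction. Cox7a1 was at 3.88, 6.88 and 7.75 CPM in NPC-E14 and 12, 9.47 and 11.1 CPM in NPC-Grb10 pA (0.81 ± 0.23, adjusted p 0.0086). Cox6b2 had 0.64 ± 0.21 (adjusted p 0.024) and Ndufa3 0.51 ± 0.13 (adjusted p 0.0031), also without overlap between groups. The count was 1 without NPC-E14 replicate 1. At the adjusted p alone, 12 genes were higher (background 13.7%) and Cox4i1 was lower (-0.44 ± 0.11). Cox4i1 lies on chromosome 8, where the median of all 730 tested genes was -0.49 in ESCs and -0.48 in NPCs with Grb10 pA. The other chromosome 8 members, Ndufa13 and Ndufb7, had -0.17 and -0.45 in NPCs, not significant. Cell type markers also differed between NPC-Grb10 pA and NPC-E14. Of the NPC markers, 4 of 6 tested were called lower, of the ESC markers 3 of 8 higher and 1 lower, of the extraembryonic endoderm markers 2 of 6 lower, of the surface ectoderm markers 1 of 5 higher and 1 lower, and of the mesoderm markers 1 of 2 tested higher. Their part in these values was not tested.

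The Grb10 pA effect differed between NPCs and ESCs for Cox5b, a complex IV subunit on the matrix side (0.63 ± 0.17, adjusted p 0.029), the only gene called, where 5.9% of all genes were. Cox5b was at 96.4, 86.3 and 87.0 CPM in ESC-E14 and 78.5, 65.9 and 81.7 CPM in ESC-Grb10 pA, but at 49.2, 64.3 and 59.7 CPM in NPC-E14 and 70.2, 82.5 and 76.6 CPM in NPC-Grb10 pA. It was lower in every ESC library and higher in every NPC library with Grb10 pA. The count was 0 without ESC-E14 replicate 1, NPC-E14 replicate 1 or NPC-Grb10 pA replicate 2 or 3, 2 without ESC-E14 replicate 2 or ESC-Grb10 pA replicate 3, 3 without ESC-Grb10 pA replicate 1 and 4 without NPC-Grb10 pA replicate 1.

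Last, the NPC vs ESC change of the WT rescue was set against that of E14 in a joint fit, a comparison added after seeing the data. Of 79 genes, 18 fell more (or rose less) in the rescue and 3 fell less, where 17.8% and 17.4% of all genes were called in each direction. Uqcrq (-1.06 ± 0.13), Ndufc2 (-0.85 ± 0.18), an accessory subunit of complex I, and Cox7b (-0.80 ± 0.19) led the first group, and Cox6a1 (1.11 ± 0.29), Cox6b1 (0.54 ± 0.16) and Atp5d, the delta subunit of the ATP synthase stalk (0.51 ± 0.18), made up the second. With the length trend taken out the counts were 8 and 8, for which the shares of all genes are not given. Treatment, clone and depth all differ between the 2 tables and cannot be told apart.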

How the data were processed

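rRNA-depleted total RNA of mouse ESCs and NPCs was sequenced as paired ends. Alignment was by STAR against mm10 and counting by featureCounts without regard to strand; from this the authors deposited raw counts per gene symbol for each of the 2 tables. The annotation used in counting was not given in the sources used here. Of the columns, 3 matched no sample and were not used. The files held no columns of the authors' own comparisons.

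Each table was fitted with edgeR 4.0.16 (R 4.3.3, quasi-likelihood test, TMM normalisation, filterByExpr with its defaults, 1 mean per group, all libraries of the table) over all genes passing the filter (16641 in the rescue and 13268 in the truncation table), with Benjamini-Hochberg adjustment. CPM are counts scaled by the TMM-adjusted total over the tested genes. Calls used an adjusted p of at most 0.05 and a change of at least 0.5 on the log2 scale, and the authors' own thresholds were the same. Alternatives were DESeq2 1.42.0, other filters and cutoffs, RLE normalisation, a replicate block, a length trend and each library left out in turn. Lengths and positions came from GENCODE M21 (mm10), in which all 84 members were found. The length of a gene was that of all its annotated exons merged, which can exceed the length of any single transcript.

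The members and all gene lists were chosen with earlier results of these data known, and the promoter motifs and the joint fit of the 2 tables after seeing the data. Named in the text were members called in a mutant comparison, the 2 largest falls and rises per complex that passed in both WT and E14, the tissue isoform sets, core subunits, the highest and lowest member per length in each complex, and members on chromosomes 11 and 8. Depth ran from 1907505 to 28730435 counts per library, and floors cover counting error only. Tested on simulated data, 60.8% of genes changed 2-fold and 94.9% of those changed 4-fold were recovered for NPC-ΔZF1 vs NPC-WT (16641 genes). For NPC-Grb10 pA vs NPC-E14 (13268 genes) these were 77.8% and 95.9%. Of the calls, 7.32% and 3.93% were false in the same order. Changes smaller than 2-fold were not simulated. The values of 1 tested member are not reported here, although it is part of all counts and sums.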

Additional observations from a re-analysis of the deposited data

Results flagged for a closer look

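The Grb10 pA effect differed between NPCs and ESCs by a test of the difference (edgeR, adjusted over all genes) for Cox5b, by 0.63 ± 0.17 on the log2 scale, and for Cox8a, by 0.40 ± 0.12 (adjusted p 0.039). Cox5b passed under 16 of 21 alternatives and Cox8a under 11 of 21. Cox8a was at 114, 126 and 105 CPM in NPC-E14 and 152, 162 and 145 CPM in NPC-Grb10 pA, and at 204, 168 and 183 CPM in ESC-E14 and 185, 176 and 193 CPM in ESC-Grb10 pA.

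The NPC vs ESC change differed between the WT rescue and E14 for 26 of 79 genes (edgeR joint fit, adjusted p of the difference). Of these, 21 also passed 0.5 in size. That is 32.9% and 26.6% of the 79 genes, against 38.9% and 35.2% of all 14742 genes. In either direction, both shares thus lay below those of all genes. With the size cutoff, 22.8% of the 79 fell more (or rose less) in the rescue, against 17.8% of all genes. The share that fell less (or rose more) was 3.8%, against 17.4%. Among the genes named above, the value (WT minus E14, log2) was -0.64 for Atp5g1, -0.68 for Atp5g3 and -0.49 for Atp5j of complex V. In complex IV it was -0.55 for Cox5a, 1.11 for Cox6a1, 0.54 for Cox6b1, -0.52 for Cox7a2, -0.80 for Cox7b and -0.60 for Cox7c. In complexes I and II it was -0.43 for Ndufb5, -0.59 for Ndufc1, -0.45 for Ndufs1, -0.38 for Sdhc and -0.63 for Sdhd, and in complex III -0.79 for Uqcrb and -1.06 for Uqcrq. Uqcrq, Atp5g1, Cox5a, Cox6a1 and Cox7b passed under 18 of 18 alternatives, Cox7a2 under 8 and Atp5j under 9. The tables differ in treatment, clone and depth, so this difference cannot be given to any 1 of them.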

How the results depend on the processing

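Of 2645 re-computed values of the 188 results on named genes that passed, 2312 stayed past the threshold in the same direction, 330 kept the direction but not the threshold, and 3 turned: Cox6b1 in NPC-WT vs ESC-WT with the length trend (0.11), Atp5h in NPC-ΔZF1 vs NPC-WT with the chromosome 11 shift removed (0.16) and Cox4i1 in NPC-Grb10 pA vs NPC-E14 with the chromosome 8 shift removed (0.047).

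Counts of called genes moved by over 1.5 times as follows. At an adjusted p of 0.01 they were 0 for both ΔZF1 vs WT comparisons and for the Grb10 pA difference and 12 for the joint fit. With no cutoff on fold change they were 37 (NPC-ΔZF1 vs ESC-ΔZF1), 12 (NPC-ΔZF1 vs NPC-WT), 43, 42 and 33 (NPC vs ESC of E14, Podxl pA and Grb10 pA), 2 (ESC-Grb10 pA), 13 (NPC-Grb10 pA) and 2 (Grb10 pA difference). With no filter on low counts the ΔZF1 difference gave 3 and the Grb10 pA difference 4, and with at least 10 counts in every library ESC-Grb10 pA gave 2. With only the compared libraries NPC-ΔZF1 vs NPC-WT gave 0 and the joint fit 13. The length trend gave 14 (NPC-ΔZF1 vs ESC-ΔZF1), 2 (ESC-Grb10 pA) and 2 (Grb10 pA difference), and the chromosome 11 shift 0 (ESC-ΔZF1). The shares of all genes called under these settings are not given beside the counts. The cause of the moves was not tested.

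Without 1 library, NPC vs ESC counts ran from 36 to 48 (WT), 10 to 24 (ΔZF1), 20 to 24 (E14), 12 to 18 (Podxl pA) and 9 to 16 (Grb10 pA). Those of the mutants ran from 0 to 0 (ESC-ΔZF1), 0 to 27 (NPC-ΔZF1), 0 to 25 (ΔZF1 difference), 1 to 4 (ESC-Grb10 pA), 1 to 6 (NPC-Grb10 pA) and 0 to 4 (Grb10 pA difference), all 3 Podxl pA counts stayed at 0, and the joint fit ran from 15 to 28. With 1 of 2 rescue libraries left out, the lone one is assumed to vary like the other groups. The shares of all genes called in these fits are not given, so the counts show only how the calls moved.

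Same-numbered replicates did not deviate together (r from -0.137 to 0.132 in the rescue and from -0.209 to 0.154 in the truncation table), so the numbers name samples only. With a replicate block ESC-ΔZF1 gave 0 calls, and 181 of 188 named results stayed past the threshold. Depth limits the low genes most, such as Cox4i2 and Ndufs5.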
